A study of Drosophila melanogaster with 6 samples.

Results

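The Gcn5 binding sites on the X chromosome of Drosophila melanogaster were taken from 3 deposited peak lists as all peaks placed on the euchromatic X sequence of the dm3 genome build. They were 842 of 5096 peaks in Kc cells treated with GFP double-stranded RNA, 716 of 4228 peaks in Kc cells treated with CP190 double-stranded RNA and 846 of 5062 peaks in S2 cells treated with GFP double-stranded RNA. Together these made 2404 of 14386 peaks, and the 5 peaks on the separate heterochromatic X sequence (1, 1 and 3 in the same order) were not counted as members.

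The study mapped Gcn5 by chromatin immunoprecipitation and sequencing with a rabbit polyclonal antibody, used at 5 µg per precipitation, on chromatin crosslinked with 1% formaldehyde. Cells were grown at 25 °C. GFP double-stranded RNA is the control treatment, since flies carry no GFP gene, and CP190 double-stranded RNA targets the insulator protein CP190 in Kc cells. Each of the 3 conditions has 1 Gcn5 library and 1 input library, and the input libraries were not used here.

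Gcn5 is the histone acetyltransferase of 2 coactivator complexes, SAGA and ATAC, which act at promoters and enhancers of active genes. CP190 is a zinc finger protein recruited by DNA-binding insulator factors, and it lies near many active promoters and at borders of chromatin domains. Kc is a female-type embryonic cell line, whereas S2 is a male-type line, in which the MSL complex with the acetyltransferase MOF binds along the X chromosome and raises its transcription (dosage compensation).

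On X, the Gcn5 peaks of the male-type S2 line were narrower than those of the female-type Kc line, while their number was almost the same. The median width was 1046 bp in S2 (95% interval 1023 to 1083), 1317.5 bp in the Kc control (1270 to 1376) and 1326.5 bp in Kc after CP190 RNAi (1270 to 1393). S2 peaks under 1000 bp made up 43.4% of the X list (367 of 846, 40.0 to 46.8%), against 12.7% of the Kc control peaks there (107 of 842). All intervals cover counting error over peaks, not the spread between cultures, because each condition has 1 library. No test between conditions is therefore given. Cell line, sex type and library differed together between S2 and Kc, so their separate parts in the widths cannot be told apart. The S2 list also names its sequences without the prefix chr that both Kc lists carry. Whether it was processed like them is not known here, and that part was not tested. The copy number of X relative to the autosomes was not analysed here. Its part in the width differences on X, here and below, was not tested, and neither was that of dosage compensation.

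S2 peaks were narrower than Kc control peaks on the autosomal arms too, but by less. The pooled autosomal medians were 1243 bp in S2 (1221 to 1271) and 1312.5 bp in the Kc control (1294 to 1333), with 29.1% and 12.6% of the peaks under 1000 bp. The median width of S2 peaks on 2L, 2R, 3L and 3R lay between 1209.5 and 1273 bp, and in each of these arms 28.1 to 30.3% of the peaks were under 1000 bp. In the Kc control list the X median lay inside the range of the 4 autosomal arms, 1284 to 1351 bp. After CP190 RNAi the autosomal medians ran from 1332.5 to 1419 bp, just above X.

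**Figure D1:**
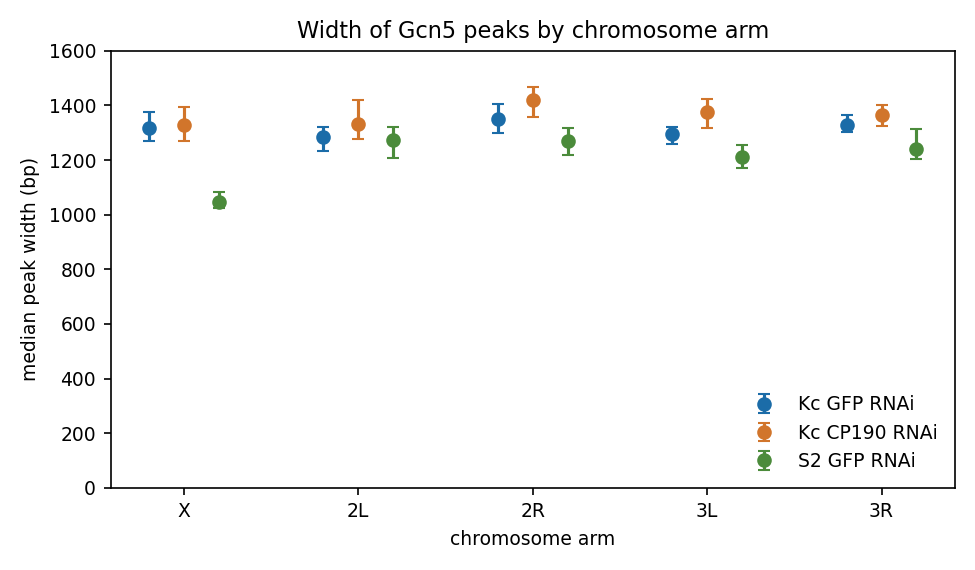
Median width of Gcn5 peaks in base pairs (vertical axis) on each chromosome arm (horizontal axis) in the 3 lists; points are medians and bars their 95% counting intervals. The S2 point on X, at 1046 bp, lies below every other point, and the Kc points on X lie among or just below those of the autosomal arms.

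The lower width of S2 peaks on X was not accompanied by lower peak scores. The score is the value that the authors' peak caller gave each peak, at least 50 in every list, and it ranks peaks within a list only. The median S2 score was 158.0 on X and 142.2 to 162.2 on the 4 autosomal arms, and 20.1% of the X peaks belonged to the highest score quintile of the whole S2 list (quintiles cut each whole list into 5 equal groups). In each quintile of the S2 scores the X peaks were the narrower ones. The medians were 878 bp on X and 1055 bp on the autosomal arms in the lowest quintile, and 1220.5 and 1446 bp in the highest. In the Kc control list these medians were 1146 and 1146.5 bp in the lowest quintile, and 1692.5 and 1539 bp in the highest. The median Kc control score was 153.3 on X and 139.4 on the autosomal arms.

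S2 peaks covered 4.73% of the X span, against 6.32 to 6.88% of the autosomal arms. Kc control peaks covered 6.08% of X and 5.95 to 6.83% of the autosomal arms.

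The same sites were compared between the lines by pairing each Kc control peak that met exactly 1 S2 peak with that peak, where it met no other control peak. On X there were 526 such pairs, and the S2 peak was the narrower member in 428 (81.4%, 77.8 to 84.6%). The median ratio of S2 to Kc control width was 0.859 on X (0.836 to 0.870). On the autosomal arms the 2269 pairs had a median ratio of 1.00 (0.989 to 1.01), with the S2 peak narrower in 49.9%. Arm by arm the ratio was 1.05 on 2L, 0.963 on 2R, 0.995 on 3L and 1.01 on 3R, so that no autosomal arm came near the X value. The peak centres on X lay a median of 68 bp apart (59 to 77 bp), against 73.5 bp on the autosomal arms.

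The ratio was below 1 in all score classes of X. In the lowest quintile of Kc control scores it was 0.915 (0.862 to 0.973, 51 pairs), in the highest 0.868 (0.825 to 0.891, 163 pairs) and in the 3 between them 0.824 to 0.841. In the highest quintile the paired Kc control peaks were themselves wider on X than on the autosomal arms, with medians of 1584 and 1477 bp. The paired S2 peaks there had 1253 and 1584 bp. A ratio below 1 also held along the length of the chromosome. Of the 22 bins of 1 Mb with at least 10 pairs, 20 had a median ratio below 1, and the lowest was 0.743 in the bin from 6 to 7 Mb. The 2 bins above 1 were those from 13 to 14 Mb, at 1.004, and from 21 to 22 Mb, at 1.007. None of the 93 autosomal bins was as low as the X median, and 9 of the 22 X bins were at or below it. The lowest autosomal bin stood at 0.870, on 3R.

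**Figure D2:**
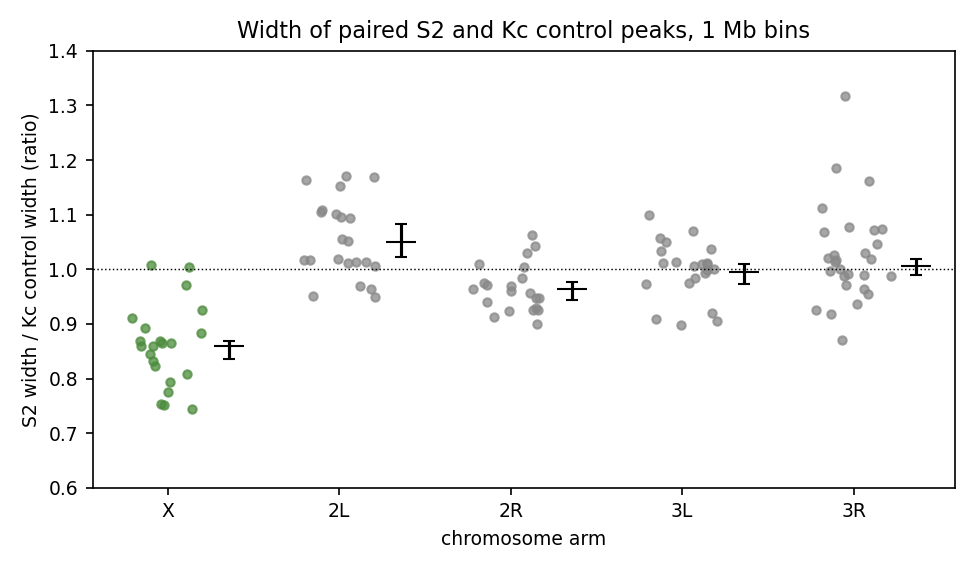
Ratio of S2 to Kc control peak width (vertical axis) at sites where exactly 1 peak of each list overlaps, by chromosome arm; each point is the median of a 1 Mb bin with at least 10 pairs, scattered sideways for legibility, and the black mark is the median over all pairs of the arm with its 95% interval. On X 20 of 22 bins lie below 1, and the arm median is 0.859 against 0.963 to 1.05 on the autosomal arms.

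CP190 RNAi gave no such difference between X and the other arms. The 490 pairs of Kc CP190 RNAi and Kc control peaks on X had a median width ratio of 0.934 (0.921 to 0.952), and the autosomal arms ran from 0.937 to 0.962. The centres of these pairs on X lay a median of 64.8 bp apart (56.5 to 74 bp).

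The comparison of the 2 lines on X asks which sites are common to a female-type and a male-type line under control treatment. Of the S2 peaks on X, 568 of 846 overlapped a Kc control peak by at least 1 bp (67.1%, 63.9 to 70.3%), against a background of 59.7% on the autosomal arms and 60.4% over all sequences. X thus had the highest share of the 5 arms, followed by 2R with 63.4%, and 2L had the lowest with 54.9%. The X share exceeded that of the pooled autosomal arms by 7.45 percentage points (Newcombe interval 3.88 to 10.9). The interval of X overlapped that of 2R, and the difference between these 2 arms was not computed. Averaged within quintiles of the S2 score the difference was 6.63 points, and within quintiles of the S2 width it was 10.5 points.

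S2 peaks on X also met the peaks called after CP190 RNAi more often than S2 peaks elsewhere. A CP190 RNAi peak was met by 376 of 846 S2 peaks on X (44.4%, 41.1 to 47.9%), against a background of 35.6% on the autosomal arms and 37.0% over all sequences. Arm by arm the autosomal shares ran from 29.9% on 2L to 42.4% on 2R, and the interval of 2R (39.1 to 45.7%) overlapped that of X. The difference between X and the pooled autosomal arms was 8.89 points (5.25 to 12.6), or 15.9 points within quintiles of S2 width. Seen from the CP190 RNAi list, 364 of its 716 X peaks met an S2 peak (50.8%, 47.1 to 54.6%), against a background of 47.6% on the autosomal arms and 44.6% over all sequences.

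Counted from the Kc side, X did not stand apart from the autosomal arms. Of the Kc control peaks on X, 550 of 842 overlapped an S2 peak (65.3%, 62.0 to 68.5%). The background was 64.0% on the autosomal arms and 59.7% over all sequences, and the difference from the autosomal arms was 1.31 points (-2.30 to 4.81). The S2 peaks without a Kc control peak were the group that was smaller on X. Sites called in S2 alone made up 230 of the 1248 X sites formed by chaining overlapping peaks of the 3 lists (18.4%, 16.3 to 20.7%), against 23.3% of the autosomal sites (22.2 to 24.4%). Sites with peaks of all 3 lists were 310 on X (24.8%, 22.5 to 27.3%) and 19.96% of sites on the autosomal arms (18.95 to 20.99%). The remaining X sites were 232 with Kc control and S2 peaks, 199 with both Kc lists, 143 with CP190 RNAi peaks alone, 88 with Kc control peaks alone and 46 with CP190 RNAi and S2 peaks.

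**Figure D3:**
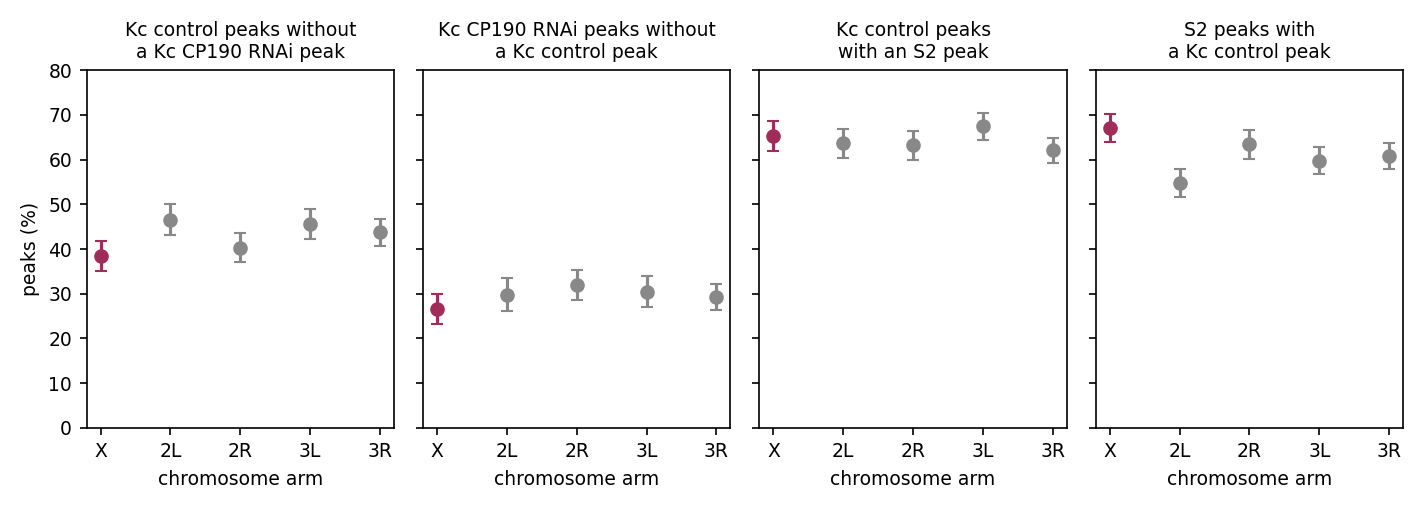
Share of peaks in percent (vertical axis) by chromosome arm (horizontal axis) for the 4 overlap counts, with exact 95% intervals; X is in colour and the autosomal arms in grey. X has the highest share of S2 peaks with a Kc control peak, at 67.1%, and the lowest share of Kc control peaks without a Kc CP190 RNAi peak, at 38.5%.

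The S2 sites of highest score on X were Kc control sites as well. The S2 peak of highest score on X, at 21292425 to 21294863, had a score of 3100 and overlapped a Kc control peak that ranked 201 in its own list. The next, at 243947 to 245750, overlapped the Kc control peak of rank 38, and the third, at 15956530 to 15957859, overlapped the highest-scored Kc control peak on X. Of the 5 S2 peaks of highest score on X, 5 had a Kc control peak and 4 had no peak after CP190 RNAi. Strong S2 peaks elsewhere had much the same pattern. In the highest S2 score quintile 92.9% of X peaks and 93.8% of autosomal peaks had a Kc control peak, and 57.1% (97 of 170) and 63.7% (513 of 805) had no CP190 RNAi peak. The fifth S2 peak by score, at 17425381 to 17427179, lay 44931 bp from the nearest CP190 RNAi peak.

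S2 sites without a Kc control peak had lower scores. The highest, at 12552521 to 12554112, had a score of 1077.76 and rank 263 in the S2 list, and the nearest Kc control peak was 3200 bp away. Another at 12650043 to 12652056 (score 784.38) fell in the same megabase. In that bin, from 12 to 13 Mb, 20 of 31 S2 peaks had no Kc control peak (64.5%, 45.4 to 80.8%). The share was 32.9% on X as a whole and 39.6% over all sequences. The Kc control list had 19 peaks in that bin, the fewest of its complete bins on X, which leaves few for S2 peaks to meet, and that part was not tested. In the other direction, the Kc control peak of highest score without an S2 peak lay at 21228453 to 21229936 (score 587.41, rank 203). The list of 5 such sites also held one at 19387889 to 19391803, which was 3915 bp wide, had an S2 peak 1022 bp away and was also called after CP190 RNAi.

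The comparison of the Kc treatments asks which Gcn5 sites depend on CP190. Of the 842 Kc control peaks on X, 324 had no overlapping peak after CP190 RNAi (38.5%, 35.2 to 41.9%), against a background of 44.0% on the autosomal arms and 42.2% over all sequences. These are called missing here, which says that no peak was called and not that binding was lost. X was the arm with the lowest share, and the others ran from 40.3% on 2R to 46.6% on 2L. The intervals of 2R (37.0 to 43.6%) and 3R (40.8 to 46.7%) overlapped that of X, and differences between single arms were not computed. The difference of X from the pooled autosomal arms was -5.53 points (-9.13 to -1.84). The interval included 0 with sharing defined by centres within 250 bp (-3.38 points, -7.10 to 0.356) and with a score of 100 or more in all lists (-3.95 points, -8.49 to 0.559). The gap between X and the autosomes was widest among the strongest sites. In the highest quintile of control scores 68 of 198 X peaks were missing (34.3%, 27.8 to 41.4%), against 44.7% on the autosomal arms (41.0 to 48.3%). These 2 intervals overlapped. In the fourth quintile the shares were 35.3% and 36.8%, and in the lowest 48.6% and 54.4%.

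Narrow peaks of X were more often missing than wide ones. In the narrowest quintile of the control list 103 of 136 X peaks were missing (75.7%, 67.6 to 82.7%), and in the widest 27 of 183 (14.8%, 9.95 to 20.7%). The autosomal arms had 83.9% and 18.2%. A wide peak can meet a peak of another list more easily by its length alone, and that part was not tested.

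Peaks called after CP190 RNAi and not in the control were 190 of 716 on X (26.5%, 23.3 to 29.9%), against a background of 30.3% on the autosomal arms and 29.6% over all sequences, a difference of -3.76 points (-7.28 to -0.041). The X peaks of this kind lay close to control peaks. Their median distance to the nearest control peak was 3442.5 bp (2936 to 4452 bp), against 4922 bp on the autosomal arms (4465 to 5492 bp), and 116 of the 190 lay under 5 kb away (61.1%, 53.7 to 68.0%) against 50.3%. The highest-scored one, at 457405 to 459830, had a score of 477.14 and rank 68 in the CP190 RNAi list, and the nearest peak of either other list was 14513 bp away. The next in score reached 252.63.

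Of the 5 Kc control peaks of highest score on X, 3 were missing after CP190 RNAi, whereas the highest score quintile as a whole had the lowest missing share of the 5 quintiles on X. The peak at 15956386 to 15958155 (score 1292.69, rank 9 of the whole list) was missing, with the nearest CP190 RNAi peak 8977 bp away. The peak at 17425546 to 17427162 (1092.9) was missing too. So was the one at 2841086 to 2842632 (1031.9), but there a CP190 RNAi peak lay 171 bp away. These 3 sites also had S2 peaks, with S2 scores of 2874.89, 2702.77 and 711.64.

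The other 2 of these 5 sites were kept with different standing. The peak at 15998517 to 16000714 (1118.46, rank 17) overlapped a CP190 RNAi peak with a score of 74.73, which had rank 3121 of 4228. The peak at 6426283 to 6428733 (1025.04, rank 25) overlapped a CP190 RNAi peak of rank 60. A call of kept therefore included sites near the top and sites in the lower part of the CP190 RNAi list. The highest-scored CP190 RNAi peak on X, at 7826722 to 7830786 (956.1, rank 5), overlapped a control peak of rank 64.

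On X the sites that Kc shares with S2 had the higher missing share. It was 236 of 550 for control peaks that overlapped an S2 peak (42.9%, 38.7 to 47.2%) and 88 of 292 for the others (30.1%, 24.9 to 35.8%), a difference of 12.8 points (5.93 to 19.3). On the autosomal arms the difference was 15.6 points (12.3 to 18.7). Both comparisons use the same Kc control list. In the lowest score quintile of X the order was turned. There 24 of 52 peaks shared with S2 were missing (46.2%) and 47 of the 94 others, a difference of -3.85 points (-20.04 to 12.8), whose interval includes 0. In the fourth quintile the difference was largest, at 57 of 138 (41.3%) against 3 of 32 (9.38%). On the autosomal arms the lowest quintile gave 11.5 points (4.26 to 18.6), an interval that overlaps the one on X.

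The 4 classes of X control peaks had different widths. The 314 peaks that met both other lists had a median width of 1673.5 bp (1573 to 1802), and the 204 that met a CP190 RNAi peak but no S2 peak 1385 bp (1269 to 1459). The 236 that met an S2 peak but no CP190 RNAi peak had 1120 bp (1079 to 1159) and the 88 with neither 1091.5 bp (1021 to 1174). Their scores followed another order, with medians of 210.4, 110.5, 183.3 and 71.7. Both classes shared with S2 thus had higher median scores than the others, and both classes kept after CP190 RNAi had larger median widths than the others. With S2 status alike, kept peaks also had the higher median score. With CP190 RNAi status alike, peaks shared with S2 also had the larger median width, but among missing peaks the 2 intervals overlapped. The autosomal classes, in the same order, had median widths of 1631, 1447, 1118.5 and 1129.5 bp. Their median scores were 195.0, 108.6, 165.7 and 77.3. Kept classes were thus wider there too, while missing autosomal peaks shared with S2 were not wider than the others.

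Control peaks that stood alone on X were more often missing after CP190 RNAi than those with close neighbours. Of the 114 X peaks whose nearest other control peak was 20 kb or more away, 76 were missing (66.7%, 57.2 to 75.2%). The shares were 33.5% of 230 peaks with a neighbour under 2 kb away, 29.8% of 188 at 2 to 5 kb and 37.1% of 310 at 5 to 20 kb. The isolated peaks thus stood 32.6 points above all others (66.7% against 34.1% of 728, interval 22.9 to 41.3).

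The difference was smaller on the pooled autosomal arms. There 286 of 517 isolated peaks were missing (55.3%, 50.9 to 59.7%) against 42.2% of the others. This was a difference of 13.1 points (8.48 to 17.7), and its interval did not overlap that of X. In single arms the missing share of isolated peaks was 60.5% on 2L (51.1 to 69.3%) and 55.7% on 3L (46.5 to 64.7%). It was 54.3% on 3R (46.3 to 62.2%) and 50.9% on 2R (41.3 to 60.4%). Each of these intervals overlapped that of the isolated X peaks (57.2 to 75.2%). The difference between isolated and other peaks was not computed for single arms. Isolated X peaks had a median width of 1135 bp, against 1310 to 1477 bp in the nearer classes. Within quintiles of width the difference was 19.8 points on X and 7.66 points on the autosomal arms, and within quintiles of score 34.2 and 13.0 points. In the fourth width quintile 10 of 18 isolated X peaks were missing (55.6%) and 30 of 166 others (18.1%), whereas in the widest these were 1 of 11 and 26 of 172. A peak with close neighbours has more CP190 RNAi peaks around it that it could meet by position, and that part was not tested. Isolated X peaks were also the ones most often shared with S2, at 88 of 114 (77.2%, 68.4 to 84.5%) against 59.0 to 67.1% in the nearer classes. The order was the same on the autosomal arms, at 352 of 517 (68.1%, 63.9 to 72.1%) against 60.0 to 65.4%. Among the 88 isolated X peaks with an S2 peak 61 were missing (69.3%), and among the 26 without one 15 were (57.7%). The autosomal arms had 62.5% of 352 and 40.0% of 165.

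**Figure D4:**
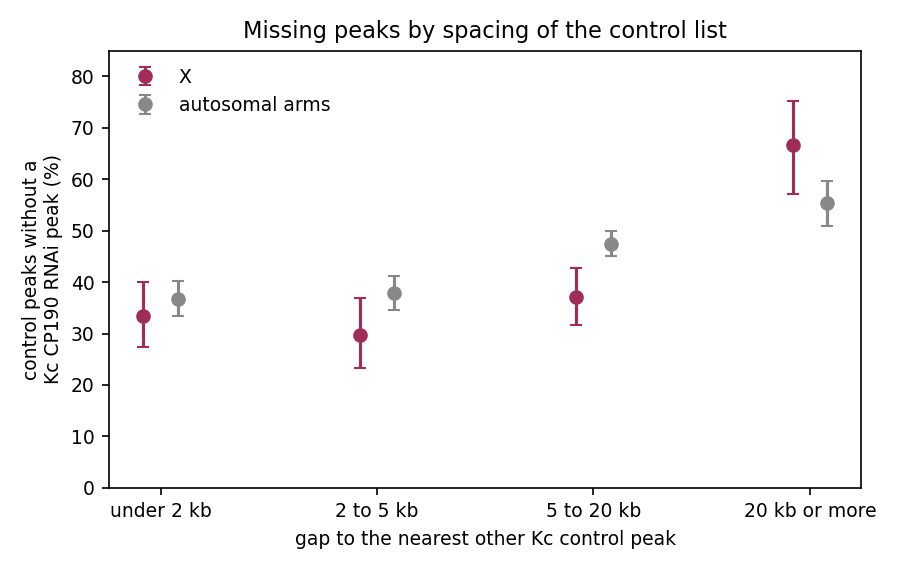
Share of Kc control peaks without a Kc CP190 RNAi peak in percent (vertical axis) by the gap to the nearest other Kc control peak (horizontal axis), on X and on the pooled autosomal arms, with exact 95% intervals. On X the share is 29.8 to 37.1% in the 3 classes under 20 kb and 66.7% at 20 kb or more.

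Gcn5 peaks were spread unevenly along X. Over a span of 22.4 Mb the Kc control list held 37.6 peaks per Mb, the CP190 RNAi list 32.0 and the S2 list 37.8. The 22 complete bins of 1 Mb held 19 to 61 Kc control peaks (median 38), 13 to 52 CP190 RNAi peaks (median 31) and 22 to 51 S2 peaks (median 38.5). The densest bin was that from 16 to 17 Mb, with 61, 48 and 51 peaks in the same order. It was followed in the Kc control list by the bin from 11 to 12 Mb, with 50, 52 and 46. An evenly spaced run, described below, gave 7 peaks of each Kc list in that bin. The bin was not counted without the run.

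The sparsest complete bin of both Kc lists, from 12 to 13 Mb, lay next to one of the densest. It held 19 Kc control and 13 CP190 RNAi peaks, and its 31 S2 peaks compared with an S2 median of 38.5 per bin. The incomplete bin at the end of the assembled arm, beyond 22 Mb, held 3, 1 and 14 peaks, so that S2 had more peaks there than both Kc lists together. The counts of the 2 Kc lists ran together over the 22 bins (Spearman 0.898), more than those of Kc control and S2 (0.620). Bins of a chromosome share their library and are not replicates.

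The CP190 RNAi list had fewer peaks than the control in 19 of the 22 complete bins. The share of missing control peaks ran from 8 of 50 between 11 and 12 Mb (16.0%, 7.17 to 29.1%) to 22 of 37 between 18 and 19 Mb (59.5%, 42.1 to 75.2%), and these 2 intervals did not overlap. The bins from 6 to 7 Mb (10 of 45, 22.2%) and from 15 to 16 Mb (10 of 44, 22.7%) were also well kept. The 3 best kept bins were the same 3 in which the CP190 RNAi list held more peaks than the control. A control peak is kept only where a CP190 RNAi peak overlaps it, so these 2 counts are not independent. These extremes were picked from 22 bins. The bin from 11 to 12 Mb includes the 7 control peaks of the even run, all of them kept.

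Neighbouring X peaks were closest together in the list after CP190 RNAi, although it was the shortest. The median gap was 10963 bp in the control (9795 to 12530), 8499 bp after CP190 RNAi (7250 to 10205) and 12490 bp in S2 (11191 to 14058). Yet the CP190 RNAi list also had the most gaps of over 100 kb, 56 against 46 in the control and 38 in S2. Gaps under 1 kb were 71 after CP190 RNAi, 77 in the control and 80 in S2. The same order of the Kc medians held on the autosomal arms, where they ran from 12344 to 12690 bp in the control and from 10411 to 11300 bp after CP190 RNAi.

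Clusters were defined as 4 or more peaks with gaps of at most 5000 bp. The X chromosome had 15 in the Kc control, with 65 peaks (7.72%, 6.01 to 9.73%), 23 after CP190 RNAi, with 103 peaks (14.4%, 11.9 to 17.2%), and 13 in S2, with 56 peaks (6.62%, 5.04 to 8.51%). The pooled autosomal arms had 6.69%, 11.0% and 9.93% of their peaks in clusters. The S2 share was thus lower on X than on the pooled autosomal arms, where the interval was 9.02 to 10.9%, while the Kc control had nearly the same share in both. These intervals treat peaks as separate although clustered peaks are counted together, so they may be too narrow. S2 peaks were also sparser on X, at 37.8 per Mb against 41.7 on the autosomal arms, and the part of density was not tested. Other cluster rules were tried on X only. Among peaks with a score of 100 or more the order of the lists turned, and the CP190 RNAi list had the lowest share on X, 0.995% against 2.10% in the control and 2.74% in S2. Each of the 4 autosomal arms had a higher S2 share than X, from 7.78% on 3R to 11.8% on 2R, and the interval of 3R overlapped that of X.

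Clustered Kc control peaks on X were shared with S2 less often than the others. Of the 65, 27 had an S2 peak (41.5%, 29.4 to 54.4%), against 523 of the 777 outside clusters (67.3%, 63.9 to 70.6%). They were missing after CP190 RNAi in 17 of 65 cases (26.2%, 16.0 to 38.5%), against 307 of 777 (39.5%, 36.1 to 43.0%), and these 2 intervals overlapped. A single run, described below, gave 7 of the 65 peaks, all with a CP190 RNAi peak and none with an S2 peak. The same split was not made for the autosomal arms, so it cannot be called particular to X. Of the 13 S2 clusters on X, each held at least 1 peak of both Kc lists, whereas 2 of the 15 Kc control clusters held no S2 peak.

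The largest cluster of the Kc control on X was a run of 7 peaks with nearly even spacing, at 11480709 to 11494989. From start to start the control peaks lay 2048 to 2135 bp apart, and the 7 CP190 RNAi peaks in the same place lay 2052 to 2134 bp apart. Each control peak of the run met 1 CP190 RNAi peak. The CP190 RNAi peaks had nearly equal widths of 945 to 979 bp and scores of 58.43 to 92.07, while the control peaks were 1056 to 1723 bp wide with scores of 165.25 to 282.85. The S2 list had no peak in the run, and its nearest peak was 5428 bp away. The DNA sequence of the run was not analysed here. The run weighed little in the totals over X, though it lies in the best kept bin. Without it 38.8% of the X control peaks were missing, and clusters held 6.95% of the control list and 13.5% of the CP190 RNAi list on X.

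The other large clusters of the CP190 RNAi list had fewer peaks in the other lists. The cluster at 510749 to 531717 held 7 CP190 RNAi, 5 Kc control and 2 S2 peaks. At its right end a control peak of 3062 bp lay over 2 CP190 RNAi peaks of 1391 and 1093 bp, and the CP190 RNAi peak at 518903 to 519974 (score 54.94) had no control peak. The cluster at 15627671 to 15643740 held 6 CP190 RNAi peaks and 2 control peaks. Of those 6, the one at 15639485 to 15641954 met an S2 peak but no control peak.

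The reverse was seen in the S2 list at 7824814 to 7833643. A Kc control peak of 4128 bp (score 829.01) and a CP190 RNAi peak of 4065 bp (956.1) each lay over 3 S2 peaks of 1426, 983 and 994 bp, with scores of 1110.9, 336.84 and 95.36. The S2 cluster at 13164679 to 13183489 had 5 S2 peaks of 1420 to 2999 bp, 2 control peaks and 2 CP190 RNAi peaks. It lay in the bin from 13 to 14 Mb, one of the 2 in which paired S2 peaks were not narrower than those of Kc. In that bin 21 of 46 S2 peaks had no control peak (45.7%, 30.9 to 61.0%). The shares on X as a whole (32.9%) and over all sequences (39.6%) lay inside that interval.

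**Figure D5:**
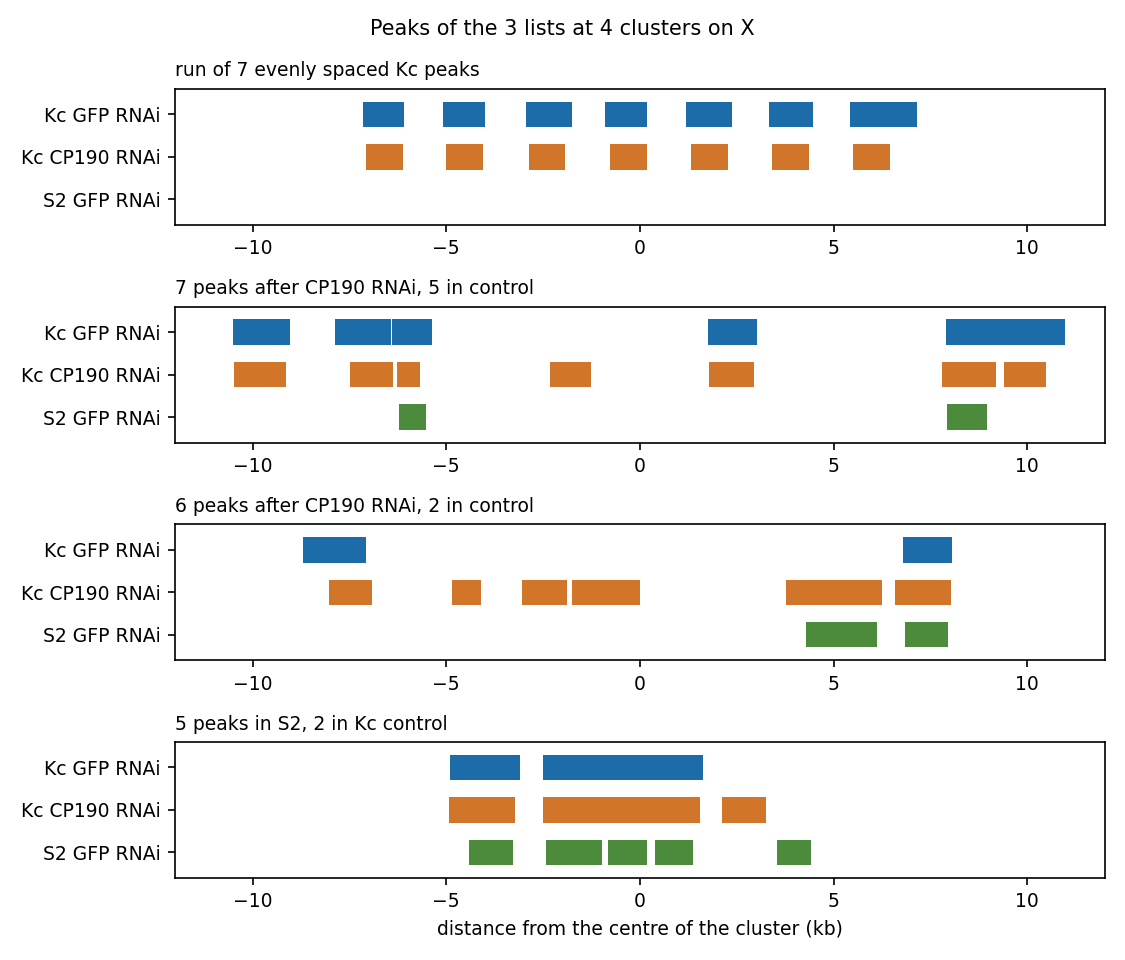
Peaks of the 3 lists (rows) at 4 clusters on X, drawn to scale as boxes by distance from the cluster's centre in kb (horizontal axis); from the top, the even run of 7, the clusters of 7 and of 6 CP190 RNAi peaks, and a cluster of 5 S2 peaks. The even run has 7 boxes in each Kc row and none in the S2 row, and in the lowest panel a Kc peak of 4128 bp stands over 3 S2 peaks.

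Long stretches of X had no peak in any list. The longest ran over 329.8 kb from 21504565 to 21834377, and the next over 256.5 kb from 14217521 to 14474009, which was also the third longest gap of the Kc control. Other gaps belonged to Kc. The longest control gap, 442.1 kb from 11929984 to 12372084, held 2 CP190 RNAi and 10 S2 peaks. The longest gap after CP190 RNAi, 524.2 kb from 21884782 to 22408974 at the end of the arm, held 5 control and 16 S2 peaks, and the next, 368.4 kb from 20530394 to 20898765, held 4 and 9. In the opposite direction the S2 gap of 211.4 kb from 1454845 to 1666217 held 5 peaks of each Kc list. Mappability and copy number of these stretches were not analysed here, and no genes were assigned, since the annotation at hand was of another genome build.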

How the data were processed

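Gcn5 was mapped by ChIP-seq in 3 libraries (Kc GFP RNAi, Kc CP190 RNAi, S2 GFP RNAi), each with an input library that was not used here. Per the submitters' processing notes, Bowtie, MACS, bedtools, HOMER and the dm3 build were named, with versions, settings and roles not given in the sources used here. Each deposited BED file gives each peak's position and the authors' peak score, a number whose scale no source used here states and which was used only within a list. The files hold no read counts, so the depth per library is unknown and the lists may differ in depth. Starts were taken as counted from 0 and are printed from 1. The prefix chr, present in the sequence names of the Kc lists and absent from the S2 list, was removed. Members were all peaks on X. The members, lists, spacing classes and named sites were chosen with earlier results of these data known.

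With Python 3.11.15, numpy 2.4.6, pandas 2.3.3 and scipy 1.17.1, peaks were called shared at an overlap of at least 1 bp, with exact Clopper-Pearson 95% intervals for shares, Newcombe intervals for differences and order-statistic intervals for medians. Functions were tested on simulated data. Quintiles of score and width were cut on the whole list, and bins were assigned by peak centre. Spans run, separately in each list, from the first peak start to the last peak end of an arm. Alternatives changed the overlap rule, a score threshold of 100, the cluster rule, merging across 200 bp and the bin size. Named sites were, per list or class on X, the 5 of highest score, the 3 largest clusters, the 3 longest gaps and the 3 densest and sparsest bins. The clusters drawn were taken from these. With 1 library per condition no test between conditions was made.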

Additional observations from a re-analysis of the deposited data

How the results depend on the processing

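Of 99 alternative settings over 22 results, 59 stayed inside the 95% interval of the reported value, 40 moved outside it and none reversed a difference whose interval excluded 0. No paired analysis was possible because no condition was replicated. The difference between X and the autosomal arms stayed inside its interval under all alternatives for the 3 shares compared. That of control peaks with an S2 peak, which included 0, turned to -1.37 points with 50% of the counted peak covered and -0.367 points within score quintiles. With centres within 250 bp the missing share of X control peaks was 49.3%, that of CP190 RNAi peaks without a control peak 40.4%, that of control peaks with an S2 peak 52.9% and that of S2 peaks with a control peak 52.6%. Under 50% reciprocal overlap the last 3 were 30.3%, 59.3% and 59.0%. With 50% of the counted peak covered, 60.8% of control peaks had an S2 peak. With peaks within 1000 bp the Kc shares were 34.9% and 23.0%, and 27.6% of X sites had all 3 lists. A score of 100 in all lists gave 52.8% and 31.6%. That score in the counted list alone gave 13.7% of CP190 RNAi peaks unshared, common shares of 76.2% and 77.2%, and a missing difference by S2 status of 25.8 points, which was 21.1 points within score quintiles. At that score the median gaps were 19409 bp, 18354 bp and 20052 bp, the widths 1417, 1564 and 1118 bp, and the cluster shares 2.10%, 0.995% and 2.74% (control, CP190 RNAi, S2). In the same order, cluster shares were 1.78%, 4.19% and 0.473% with gaps up to 2000 bp, 32.4%, 42.5% and 23.6% up to 10000 bp, and 20.9%, 29.9% and 19.7% with 3 peaks. The remaining results were added after seeing the data. The isolated peak difference was 20.7 points at 10 kb, 47.7 at 50 kb and 19.8 within width quintiles. The autosomal width ratio was 1.008 at a score of 100, and the X ratio 0.865 to 0.866 under its 3 alternatives. The main limits are 1 library per condition, unknown depth and the use of called peaks in place of signal.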

Other observations

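The width difference on X was also present within the classes of sharing. S2 peaks on X that met both Kc lists had a median width of 1250 bp (1171 to 1332), against 1724 bp on the autosomal arms (1663 to 1781). Those that met the Kc control list alone had 995 bp (962 to 1029) and 1134 bp (1112 to 1157), and those that met neither Kc list 908.5 bp (878 to 948) and 1003 bp (983 to 1030). The S2 peaks of X that met the Kc control list alone had the highest median score of the 4 classes, 318.2, although they were not the widest.

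Among the 245 pairs of neighbouring X control peaks with a gap of up to 5000 bp, both peaks were missing after CP190 RNAi in 34, 1 of them in 83 and neither in 128. Among the 596 pairs farther apart, both were missing in 131, 1 in 234 and neither in 231. Of all X control peaks 38.5% were missing, and the counts expected from that share alone were not computed. The pairs were not counted on the autosomal arms. These counts therefore do not show whether neighbours went missing together.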
